A study of Rattus norvegicus with 4 samples.

Results

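The regions described here are the m6A peaks of transcripts that carried a peak after bisphenol A (BPA) and none in untreated cells. A BPA peak was taken where its gene name had no peak in the Ctrl list and where the gene's input level was at least 1 FPKM (fragments scaled to transcript length and library size) in both the BPA and the Ctrl library. This gave 762 peaks in 665 genes, of 8183 BPA peaks in 4088 genes; the 665 are 5.43% of the 12247 genes at that level in both inputs. Of 731 BPA genes without a Ctrl peak, 23 had no row in the input tables and 43 lay under the minimum level, and these were set aside. The rule compares the BPA list with the Ctrl list, so the presence of the peaks, their scores and their enrichment are a description and support nothing by themselves. Peak presence was called by the authors from 1 IP library per condition, and no difference between conditions was tested.

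The study exposed primary rat hippocampal neurons to BPA, a plasticiser with hormone-like activity, and sequenced their RNA before (input) and after (IP) pull-down with an m6A antibody. The 4 groups hold 1 library each: BPA_IP and BPA_Input, from cultures given 1 mM BPA for 48 h, and Ctrl_IP and Ctrl_Input, from cultures with no treatment. The labels place the exposure at day 12 to 14 in vitro for BPA_IP and at day 12 to 13 for BPA_Input. All cultures received the mitotic inhibitor Ara-C at day 7; the labels give no genotype, strain or age of the animals, and leave unsaid whether both libraries of a condition share a dish and how many animals were pooled.

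N6-methyladenosine (m6A) is a methyl mark set on adenosines of mRNA by a nuclear writer complex built around METTL3 and METTL14. Reader proteins such as those with a YTH domain bind it and steer the splicing, export, translation and decay of the transcript, and the erasers FTO and ALKBH5 remove it. Marks typically lie in the sequence context DRACH (D is A, G or T, R a purine and H any base but G), of which GGAC is a common core, and are dense around stop codons and in long internal exons. In neurons the mark is known for its part in axon growth, synaptic plasticity and memory.

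The start of the locus was a frequent place of these peaks, and 176 of the 762 covered its 5′ base. To show what sequence lies there, the bases around a GGAC motif within the first 50 transcribed bases are given for 4 genes with such a peak. They are the 4 with the highest peak score among those that hold the motif in the RefSeq promoter table. The sequences are from RefSeq (rat build GRCr8, transcribed strand, 5′ to 3′), and capitals mark GGAC. The search was for GGAC alone and did not ask for the base after it. In Nptn and Crbn that base is G, so the marked stretch there is not a full DRACH match. Syncrip encodes an RNA-binding protein of the hnRNP family, Nptn the cell adhesion protein neuroplastin, Zfp609 a zinc finger protein and Crbn cereblon, a substrate receptor of an E3 ubiquitin ligase.
Syncrip, chr8:98315337-98315360, minus strand: gagcgactcggcagGGACtgggga
Nptn, chr8:67892710-67892733, plus strand: gaggcttGGACgctgcggcggtag
Zfp609, chr8:75213055-75213078, minus strand: gttgtccactGGACattttctgac
Crbn, chr4:141275989-141276012, minus strand: gagatcaccaGGACgctgcgcaca

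The peaks over these starts had scores of 1138 in Syncrip, 56.3 in Nptn, 37.3 in Zfp609 and 31.3 in Crbn. The motif stood at about the background rate. GGAC, searched on the transcribed strand, was found in the first 50 bases of 22 of 118 genes with a matched start (18.6%, Wilson 95% interval 12.7 to 26.6), where 176 genes had such a peak. It was found in 21.2% of 768 matched genes with a start peak and peaks in both lists, in 20.8% of 8870 genes at the same input level and in 18.9% of all 27457 genes of the table. A match is a description and not a methylated site, and the RefSeq start may differ from the start of the locus in the files. The build of the files' coordinates is not given in the sources used here, so peak sequences were not read from a genome, and every position given for a peak or locus is in the files' own coordinates.

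The deposited counts of both input libraries had similar totals, 9774929 for BPA_Input and 9837064 for Ctrl_Input over 22714 genes. The authors appear to have scaled these counts in each library, so the totals are not numbers of reads. Neuron markers were present (summed level of 7 markers 1443 FPKM in BPA_Input and 1331 in Ctrl_Input), and so were astrocyte markers, at a higher sum (6 markers, 6168 and 6694 FPKM). Gfap, the astrocyte filament protein, had 2138 FPKM in BPA_Input and 2222 in Ctrl_Input, so astrocyte transcripts were abundant beside those of the labelled neurons. Microglia markers summed to 72.2 and 69.9 FPKM, oligodendrocyte lineage markers to 161 and 155, fibroblast and mural markers to 68.0 and 59.0 and endothelial markers to 1.10 and 1.09, with Cldn5 at 0 in both. In bulk RNA of this kind, fewer cells of a type and less RNA per cell cannot be told apart.

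Most of these peaks were weak. The authors' score is the negative log10 of the peak's p-value times 10. Its median was 9.71 over the 762 peaks (quartiles 5.29 and 22.2, highest 1401), against 47.7 over the 6878 BPA peaks of the 3113 genes with peaks in both lists (lower quartile 12.8). A p-value of at most 0.05 was reached by 303 member peaks (39.8%), against 74.6% of BPA peaks in both-list genes and 71.3% of all BPA peaks. A score of at least 100 was reached by 37 (4.86%), against 36.0% in both-list genes and 33.3% of all BPA peaks. Fold enrichment over input, also the authors' value, had a median of 4.77 in members, against 6.52 in both-list genes. Ctrl peaks of genes with no BPA peak, at the same input level, were also weak. Their median score was 8.305, and 33.7% had a p-value of at most 0.05 by the authors' score. A score of at least 100 was reached by 4.05% of them, and their median fold enrichment was 4.35. All these values belong to the contrast that chose the genes and are not evidence of a change.

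**Figure D1:**
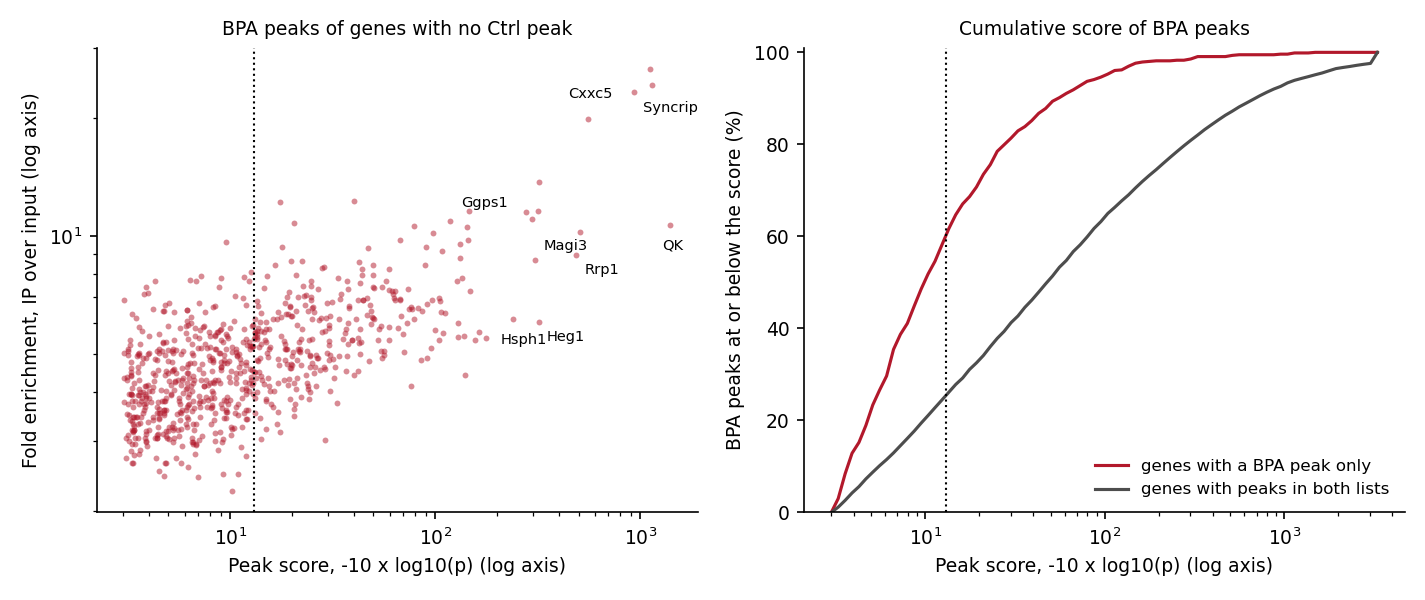
Left: score and fold enrichment (IP over input), both on log axes, of the 762 BPA peaks in genes without a Ctrl peak, each point 1 peak, with the dotted line at a p-value of 0.05. Right: the share of BPA peaks at or below each score (log axis) in genes with a BPA peak only (red) and in genes with peaks in both lists (grey). The red curve runs to the left of the grey one, with medians of 9.71 and 47.7, and 37 red points reach a score of 100.

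A gene missing from the Ctrl list was common in either direction. Of 3778 genes with a BPA peak at this input level, 17.6% had no Ctrl peak, and of 3722 genes with a Ctrl peak, 16.4% had no BPA peak (609 genes with 692 Ctrl peaks). The share was smaller where the gene's strongest peak scored higher. It was 47.2% of BPA genes whose strongest peak scored under 10, 27.9% at 10 to 30, 11.8% at 30 to 100 and 2.79% at 100 to 1000, and 3 of 367 genes (0.817%) at 1000 or more. In the mirror direction, Ctrl genes without a BPA peak, the shares were 44.1%, 26.0%, 7.83%, 2.42% and 0.294%. It was also smaller at greater depth, with 24.2% of BPA genes of under 100 input counts and 11.6% of those of over 3000. Near the limit of the rule, Kif1b, a kinesin motor, was kept out by a Ctrl peak of score 3.05, although its BPA peak scored 102. Among the both-list genes 548 had no Ctrl peak with a p-value of 0.05 or less. At the level limit, Ccdc33 was just inside (1.06 FPKM in BPA_Input and 1.08 in Ctrl_Input) and so was Marf1 (1.42 and 1.14), while Oxld1 (0.972 and 3.37) and Mbd5 (0.874 and 1.15) were just outside.

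**Figure D2:**
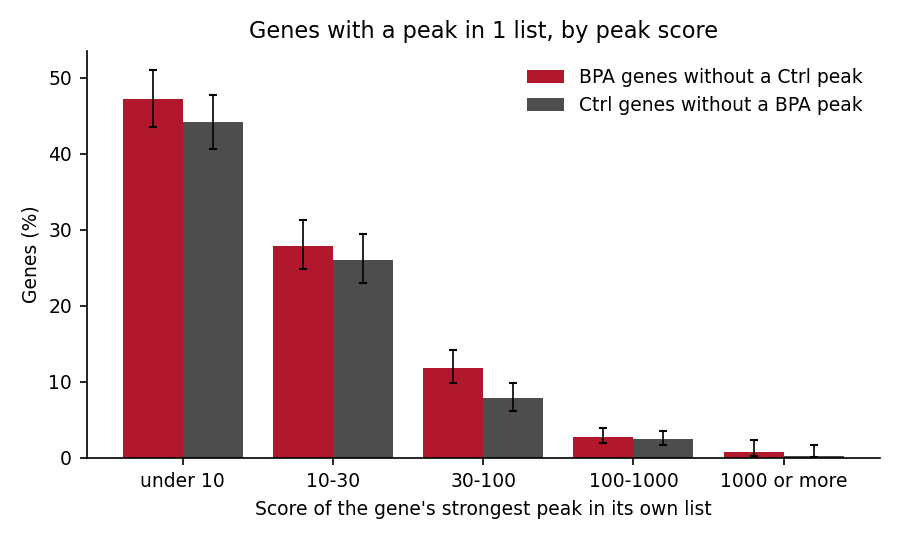
Share of genes (%) with a peak in 1 list and none in the other, by the score of the gene's strongest peak in its own list, for BPA genes without a Ctrl peak (red) and Ctrl genes without a BPA peak (grey). Bars have Wilson 95% intervals, which cover counting error only, and both colours are highest under 10 (47.2% and 44.1%) and lowest at 1000 or more (0.817% and 0.294%).

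The 12 genes with the strongest peaks differ widely in function. QK, an RNA-binding regulator of splicing and myelination, had the highest score, 1401, at a fold enrichment of 10.7 (chr1:52273473-52273589, 117 bp). Its input level was 47.0 counts in BPA_Input, against 88.8 in Ctrl_Input. That is 0.529-fold, with an exact 95% interval for counting error of 0.363 to 0.760. A gene spelled Qk, with no row in the input tables, also had a BPA peak and no Ctrl peak, of the same length of 117 bp.

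Syncrip had 2 peaks. The one over its start (chr8:95628030-95628177) scored 1138 at 24.2-fold enrichment, and the interior one scored 8.27. Its input was flat, at 641 counts in BPA_Input and 660 in Ctrl_Input. The only other peak above 1000 lay in LOC100361103, which has no description (1121, with a further peak at 508). Of its 2 peaks, 1 lay on a row on chromosome 4 with 0 counts in both libraries, while the row used lies on chromosome X.

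Cxxc5, a CXXC zinc finger protein that binds CpG-rich DNA, had a peak of 937 at 23.2-fold enrichment. The files place this peak on chromosome X, on a row with 0 FPKM in BPA_Input and 0.0564 in Ctrl_Input, whereas the expressed row (39.8 and 35.8 FPKM) lies on chromosome 18. The level that admitted the gene is therefore not that of the locus under its peak.

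Rrp1, a ribosomal RNA processing protein, had 4 peaks, more than any other member. They scored 488 at the 3′ end, 317 and 24.5 in the interior and 11.9 at the start, with 316 input counts in BPA_Input and 292 in Ctrl_Input. Peaks of 320 in Heg1, a transmembrane protein of heart and vessel development, and of 306.5 in Magi3, a scaffold protein with PDZ domains, followed. Ggps1, which makes the lipid donor for protein geranylgeranylation, had a start peak of 297.5. Sgcb, the beta subunit of the sarcoglycan complex, had a start peak of 277. Hsph1, a chaperone of the Hsp110 family, had an interior peak of 241. Of the 12 genes with the strongest peaks, LOC100912059 (555) and Hmg1l1 (321) complete the set. Input ratios in Rrp1, Heg1, Magi3, Ggps1, Sgcb and Hsph1 lay between 0.905-fold in Sgcb (3429 counts in BPA_Input and 3790 in Ctrl_Input) and 1.08-fold in Rrp1.

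Further peaks with a score of at least 100 lay in genes of many functions, of which some are described here and others with their class below. Elavl3, a neuronal RNA-binding protein, had a peak of 145 at its 3′ end (603 counts in BPA_Input and 560 in Ctrl_Input). The sodium leak channel Nalcn had a 3′ peak of 131 and interior peaks of 9.09 and 8.22. Cntfr, the receptor subunit for ciliary neurotrophic factor, had a 3′ peak of 111. Among genes of high level, the clathrin heavy chain Cltc (17353 counts in BPA_Input and 17837 in Ctrl_Input) had a start peak of 130, and the growth factor pleiotrophin, Ptn (10253 and 10826 counts), an interior peak of 108.5. Sox9, a transcription factor of glia and neural progenitors, had a start peak of 105 (838 and 948 counts). Elavl3 and Nalcn are among the genes named by the fixed rule, while Cltc, Ptn and Sox9 were chosen after their values were seen.

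Most members carried a single peak: 583 of 665 genes (87.7%) had 1, 68 had 2, 13 had 3 and 1 had 4. Of the both-list genes, 48.0% had 1 BPA peak, and the highest number was 20. Peaks of 1 gene share a transcript and are not independent of each other. No member peak overlapped a Ctrl peak of any gene name by at least 1 bp. The nearest Ctrl peak was 1456 bp away, for a peak of Tada2b, and the median distance was 125204 bp.

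Peak length was widely spread. The median was 177 bp (quartiles 120 and 400), against 157.5 bp for BPA peaks in both-list genes. Among genes with a single peak the order turned, with 184 bp in members and 207 bp in both-list genes. Lengths of at least 1000 bp occurred in 51 member peaks (6.69%), against 3.07% in both-list genes. Ctrl peaks of genes with no BPA peak had a median close to that of members, 176 bp (quartiles 114 and 343), and 4.48% of them reached 1000 bp. The longest member peak was in Zfp804a, a zinc finger protein (3098 bp, score 3.65), followed by Pnmal2 (2575 bp, score 143) and Scaf1 (2471 bp, score 3.98). Among genes with a proper symbol the shortest were in Fgfr1op (19 bp), Gabra2 (26 bp) and Smurf2 (29 bp). Gabra2 is the alpha-2 subunit of the GABA-A receptor, and its short peak lay at the locus start with a score of 67.7.

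Peaks were frequent at both ends of the locus. Place was read from the peak's midpoint along the locus in the direction of transcription, with the first 10% as start and the last 10% as end. A locus includes introns, so this is not a place in the mature mRNA. Of 739 peaks on the locus of the input row, 218 lay at the start (29.5%, Wilson 95% interval 26.3 to 32.9), 385 in the interior (52.1%) and 136 at the end (18.4%, 15.8 to 21.4). BPA peaks of both-list genes lay at the start in 21.2%, in the interior in 67.1% and at the end in 11.8%. The number of peaks per gene differed between these sets, and it moved with place. Among single-peak genes the start share was 33.2% in members and 37.0% in both-list genes, so the order turned, while the end share was 19.7% (16.6 to 23.2) in members and 13.6% (12.0 to 15.5) in both-list genes. Ctrl peaks of the 609 Ctrl-only genes lay at the start in 27.2% and at the end in 15.6%.

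**Figure D3:**
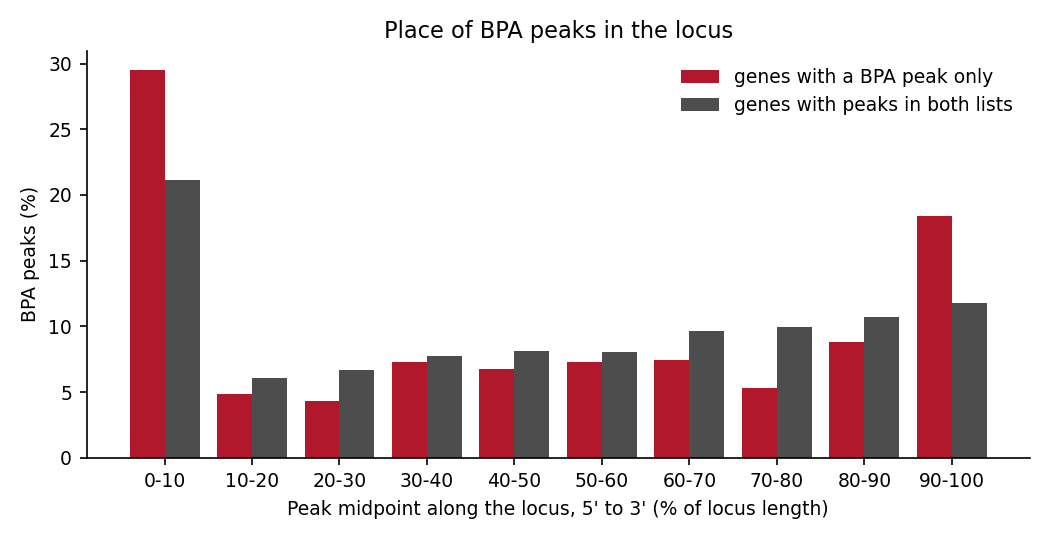
Share of BPA peaks (%) by the place of the peak midpoint along the locus, 5′ to 3′, in steps of 10% of the locus length, for genes with a BPA peak only (red, 739 peaks) and genes with peaks in both lists (grey). The first step holds 29.5% of red and 21.2% of grey peaks and the last step 18.4% and 11.8%, with every step between them lower than the first in both sets.

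Among member peaks the end share was larger at higher scores. It was 15.6% for scores under 10, 18.4% at 10 to 30, 23.8% at 30 to 100 and 33.3% at 100 or more (11 of 33 peaks, 19.8 to 50.4). In both-list genes these shares were 13.3%, 12.6%, 10.8% and 11.1%. The 37 member peaks of score 100 or more were long, with a median of 483 bp against 171 bp in both-list genes, and 6 of them reached 1000 bp (16.2%, against 4.12%). Elavl3 (810 bp), Kin (955 bp), Marcksl1 (1121 bp) and Rrp1 (612 bp) had such long peaks at the end of the locus. Kin is a DNA- and RNA-binding protein and Marcksl1, chosen after its values were seen, a membrane protein of the MARCKS family. Of the 37 member peaks, 26 were in single-peak genes, against 471 of the 2474 peaks of such scores in both-list genes. Neither length nor end share was compared at these scores between genes with equal numbers of peaks. Because score and length come from the same peak call, these values are a description of the peaks.

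The members' transcripts were of moderate level, and their level was close to equal between conditions. For the 661 member genes that averaged 10 counts or more, the median was 389.5 counts in BPA_Input and 402.8 in Ctrl_Input. The median log2 ratio of BPA over Ctrl, computed from counts + 1, was -0.03 (quartiles -0.13 and 0.07), with 287 genes above 0 and 374 below. Over all 13006 genes tested it was 0.0019, and over both-list genes -0.0059. A ratio of at least 2-fold was found in 5 member genes in the higher direction (1.04% of all genes tested) and in 4 in the lower (0.984% of all). Together these are 9 of 661 (1.36%), against 2.02% of all genes tested. The order turns where low counts are left out: of member genes that averaged 50 counts or more, 8 of 627 (1.28%) were 2-fold apart, against 0.475% of all genes tested at that depth. These 8 include Rpl8, MGC109340, LOC100912059, Hmgb3 and Gstm5, whose peaks lay outside the locus of the row used. Without all member genes with such a peak, 4 of 639 (0.626%) that averaged 10 counts or more were 2-fold apart. On the log2(FPKM + 1) scale the 9 stand against 0.8% of all, and among both-list genes 14 of 3091 (0.453%) were 2-fold apart. Members and both-list genes had at least 1 FPKM in both inputs, a minimum not asked of all genes tested. The shares of all genes tested are therefore not a like background for the members.

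**Figure D4:**
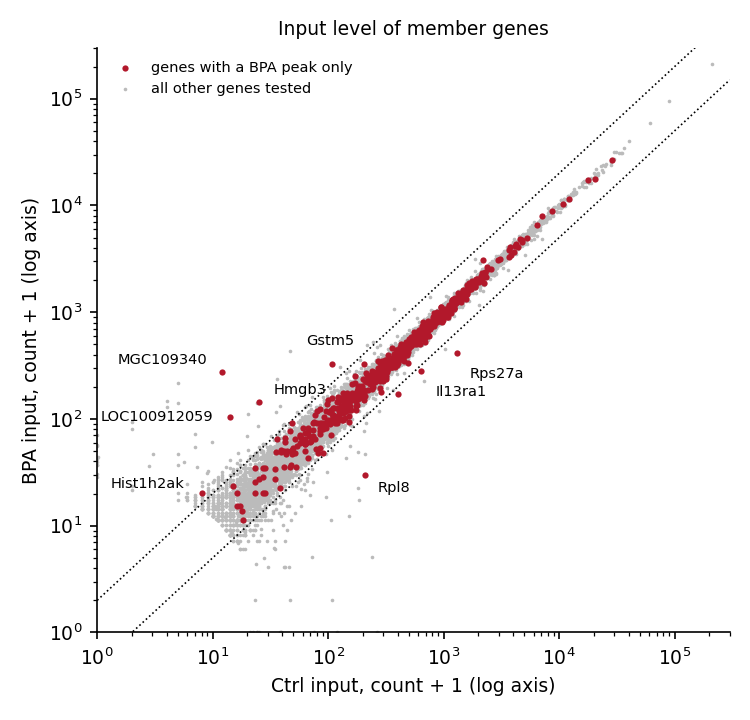
Input counts + 1 in BPA_Input (vertical) and Ctrl_Input (horizontal), both on log axes, with each point 1 gene: genes with a BPA peak only in red and all other genes tested in grey. Dotted lines mark 2-fold, and 9 of 661 red points lie beyond them.

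Of these 9 genes, 6 have a second copy in the table, a further row that bears their name or description (66.7%, against 8.32% of the 661 member genes). Rpl8, a ribosomal protein, had 28.6 counts in BPA_Input and 208 in Ctrl_Input (log2 ratio -2.82). Rps27a, a fusion of ubiquitin and a ribosomal protein, had 411 and 1303 (-1.66) on chromosome 14, while its other row, on chromosome 5, had 1067 and 370.5. MGC109340, described as similar to a signal peptidase subunit, had 272 counts in BPA_Input and 11.1 in Ctrl_Input (4.49), and its row under the peak had 3.07 and 44.4.

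LOC100912059, described as like a ubiquitin hydrolase, had 104 counts in BPA_Input and 13.1 in Ctrl_Input (2.90). Hmgb3, a high-mobility group protein, had 142 and 24.2 (2.50), and the glutathione transferase Gstm5 326 and 106 (1.61). In Rpl8, MGC109340, LOC100912059, Hmgb3 and Gstm5 the peak lay outside the locus of the row used, so the ratio is not that of the RNA under the peak. The remaining genes were Il13ra1, a receptor chain for interleukin 13 (282 counts in BPA_Input and 638 in Ctrl_Input, -1.17), LOC678813 (170 and 401, -1.23) and the histone gene Hist1h2ak (19.4 and 7.07, 1.34). In Il13ra1 the peak was weak (score 6.59).

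Peak and row were on different loci in 23 peaks of 22 member genes, 4 of them on another chromosome. In 7 cases another row of the same name lay under the peak, and 6 of these 7 rows had under 1 FPKM in at least 1 library, so that they would not have met the rule alone. Shank2, a scaffold of the postsynaptic density, is an example: its peak of 12.3 lay on a row with 0 counts in both libraries, and its expressed row had 468 counts in BPA_Input and 416 in Ctrl_Input.

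By gene description the members covered the range of cell functions mostly at rates near those of all expressed genes. Of 16 classes defined by words in the description, kinases held 34 members (5.11%, against 4.73% of the 12247 genes with FPKM of at least 1 in both inputs). Receptors held 28 (4.21%, against 4.13%), the ubiquitin system 28 (4.21%, against 3.22%) and zinc finger proteins 25 (3.76%, against 3.81%). RNA processing held 26 (3.91%, against 2.47%), and its share of all genes with a BPA peak was 4.55%. The cytoskeleton held 22 (3.31%, against 2.88%), and its share of genes with a BPA peak was 4.71%. Solute carriers and transporters held 7 (1.05%, against 2.38% of expressed genes and 1.27% of genes with a BPA peak), and adhesion proteins 1, the giant cadherin Fat1. No class was tested for enrichment, 403 members (60.6%) fell in no class, and a gene can fall in several.

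**Figure D5:**
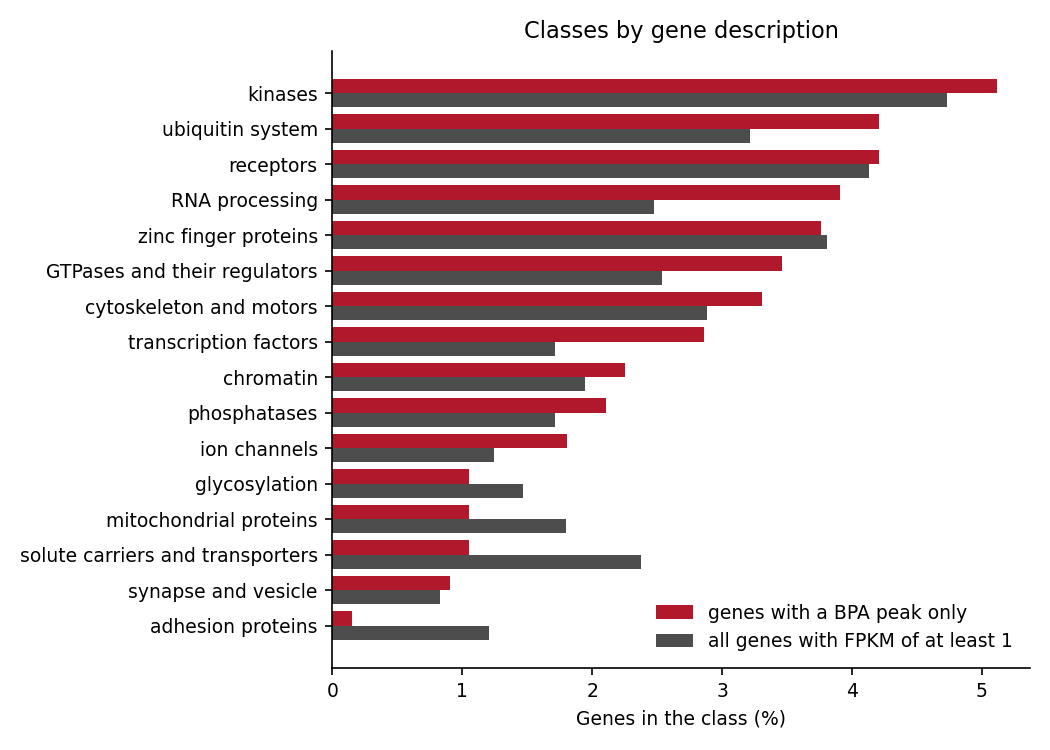
Share of genes (%) in each of 16 description classes among the 665 genes with a BPA peak only (red) and among all 12247 genes with FPKM of at least 1 in both inputs (grey). Kinases are the longest red bar (5.11%, against 4.73%) and adhesion proteins the shortest (0.150%, against 1.21%).

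The RNA processing members cover several steps of mRNA handling. Besides Syncrip, Kin and Elavl3, Pcf11, a factor of 3′ end cleavage, had an interior peak of 138 and 1118 bp (837 counts in BPA_Input and 899 in Ctrl_Input). Rnps1, a splicing factor bound near exon junctions, had interior peaks of 74.9, 48.0 and 11.4. Upf1, the helicase of nonsense-mediated decay, had a start peak of 68.5 (641 and 703 counts). By the deposited pathway annotation, which covers 243 members, 10 belonged to mRNA surveillance (4.12%, against 1.77% of 4302 annotated expressed genes and 3.11% of 1317 annotated genes with a BPA peak). They were Pcf11, Rnps1, Upf1, Gspt2, Dazap1, Smg5, Cpsf7, Nxf1, Ppp2r5c and Ppp2r5a. Other RNA pathways differed, with shares given against the same backgrounds in the same order. The spliceosome held 6 members (2.47%, against 2.72% and 5.3%) and RNA transport 9 (3.70%, against 3.14% and 4.18%). Ribosome biogenesis held 6 (2.47%, against 1.56% and 2.20%). Gspt2, a translation termination factor, had a peak of 63.0 and 2470 bp, and the export receptor Nxf1 a weak start peak of 3.78. Pathways given as examples, and the genes named from them, were chosen after their values were seen.

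MAPK signalling held 17 of the 243 annotated members, against 4.60% of annotated expressed genes and 5.92% of annotated genes with a BPA peak. Its strongest were Taok2, a kinase upstream of the p38 and JNK branches, with interior peaks of 99.5 and 11.6, the actin crosslinker Flna with a start peak of 86.6, and Nf1, a brake on Ras, with a 3′ peak of 85.0. Each gene that encodes a JNK kinase was a member, with low scores: Mapk10 had a 3′ peak of 17.2, Mapk8 a start peak of 12.8 and Mapk9 peaks of 3.42 and 3.09. Their inputs differed little, with 1725 counts in BPA_Input and 1710 in Ctrl_Input for Mapk10, 479 and 518 for Mapk8 and 1652 and 1624 for Mapk9. The Mapk9 peak of 3.09 lay outside the locus of the row with these counts. Ras signalling held 15 members (6.17%, against 3.72% and 4.56%), which include the JNK genes. Metabolic pathways held 28 (11.5%), against 19.9% of annotated expressed genes and 10.8% of annotated genes with a BPA peak.

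Among kinases, the regulatory subunit Csnk2b of casein kinase 2 had a 3′ peak of 148.5 and Tbk1, a kinase of innate immunity and autophagy, interior peaks of 62.6 and 4.79. In the ubiquitin system, the deubiquitinase Usp33 had an interior peak of 164 (1764 counts in BPA_Input and 1847 in Ctrl_Input) and Cul1, the scaffold of SCF ligases, a start peak of 49.6; Cul1 was chosen after its values were seen. Trip12, an E3 ligase that the word rule counts among receptors, had interior peaks of 95.2, 36.6 and 7.83. Transcription factors held 19 members (2.86%, against 1.72% of expressed genes and 2.07% of genes with a BPA peak). Among them E2f4 had a start peak of 36.6, Foxn3 an interior peak of 36.4 and the neuronal factor Pou3f2 one of 33.6 and 2315 bp. Usf2 had a peak of 63.4 outside the locus of its row.

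The counts of synaptic genes are to be read against the shares over all genes, of which 5.43% at this input level and 17.6% of those with a BPA peak were members. Among 49 postsynaptic receptors and scaffolds at this input level, 18 had a BPA peak and 20 a Ctrl peak; 14 had both, 4 were members and 6 had a Ctrl peak only. The members were Gabra2 (2552 counts in BPA_Input and 2568 in Ctrl_Input), Dlgap3, Gria4 and Shank2. Dlgap3, a scaffold of the postsynaptic density, had a 3′ peak of 46.6 and an interior one of 10.8. Gria4, an AMPA receptor subunit, had an interior peak of 23.7 and a start peak of 18.3 (512 and 563 counts). Grin2a, Grik4, Grm5, Homer3 and Nlgn2 were among those with a Ctrl peak only.

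Of 30 presynaptic genes, 17 had peaks in both lists, and the 1 member was the vesicle protein Sv2a, with a weak start peak of 6.11. Of 37 voltage-gated ion channel genes, 13 had both and 3 were members, with 3 in the Ctrl list only. These members had low scores. The calcium channel subunit Cacnb4 had a peak of 14.2, the A-type potassium channel Kcnd2 one of 11.5 and Kcnq3, a channel of the M current, one of 6.56.

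Genes of glia were also present. Kcnj10, a potassium channel of astrocytes, had a start peak of 47.0 at 9.31-fold enrichment (1793 counts in BPA_Input and 1589 in Ctrl_Input). Slc1a3, the astrocyte glutamate transporter, had a start peak of 28.0 at 8.27-fold (26735 and 28964 counts). Slc1a3 was the 1 gene of the 6 astrocyte markers with a BPA peak, and Aldh1l1 the 1 with a Ctrl peak. No gene of the neuron, microglia, oligodendrocyte lineage, endothelial, fibroblast and mural or proliferating cell markers was a member. Of all genes at this input level 5.43% were members, and 17.6% of those with a BPA peak. Against these shares the marker lists are too short to set any cell type apart. The astrocyte markers summed lower in BPA_Input than in Ctrl_Input, as given above. Whether this bears on the peaks of astrocyte genes was not tested.

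Of 18 writers, erasers and readers of m6A at this level, 8 had a BPA peak and 7 a Ctrl peak, 6 had both and 2 were members. These 2 of 18, or 2 of 8 with a BPA peak, are too few to set apart from the 5.43% and 17.6% over all genes. Ythdf2, a cytoplasmic reader, had a Ctrl peak only. Cbll1, a subunit of the writer complex, had an interior peak of 1518 bp and score 12.1. It had 592 counts in BPA_Input, against 748 in Ctrl_Input. Fmr1, the RNA-binding protein of fragile X syndrome and a reader of the mark, had an interior peak of 10.6, with 809 counts in BPA_Input, against 969 in Ctrl_Input. By the authors' score neither peak reached a p-value of 0.05.

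Among chromatin genes 2 of 48 were members, where 5.43% of all genes at this level were, namely the histone demethylases Kdm2a (interior peak of 54.7) and Kdm5c (4.48), while 32 had peaks in both lists. The list of steroid and xenobiotic receptors, which also holds the thyroid hormone receptor Thrb, had 12 genes at this level. Of these, 4 had a BPA peak, 5 a Ctrl peak and 3 both. Thrb was the 1 member, too few to set apart from the 5.43% over all genes. It had a 3′ peak of 7.11 (342.5 counts in BPA_Input and 370.5 in Ctrl_Input). Nr3c2 and Ppard had a Ctrl peak only.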

How the data were processed

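Primary hippocampal neurons of rat gave 4 libraries, 1 for each of BPA_IP, BPA_Input, Ctrl_IP and Ctrl_Input, prepared with a directional library kit, per the labels' protocols. Tools named without a role in the submitters' processing notes are HISAT2 2.0.4, cutadapt 1.9.3 and STAR. Which program gave the gene levels, which version called peaks, and on which build, is not given in the sources used here. Gene levels in the deposited input tables are, per their file headers, FPKM values and counts. The deposited counts are estimated counts (expected counts, not whole reads), which the authors appear to have scaled by 1 factor in each library. The deposited peak lists name MACS peaks and hold, per the file headers, a score (the negative log10 of the p-value times 10), a ratio of IP over input called fold enrichment, and an FDR in percent, which was 100 in every peak. Peak numbers ran to 13193 (BPA) and 13908 (Ctrl), higher than the 8183 and 8192 listed peaks, so some called peaks are not in the lists, and the lowest score was 3.02 in both.

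Members were found by gene name, and of several rows of a name the one with the highest summed count was used. Log2((BPA + 1)/(Ctrl + 1)) was computed from the deposited counts for genes averaging 10 or more, without further scaling and without a test, since each group is 1 library. Intervals of ratios are exact (Clopper-Pearson) and of shares Wilson, both at 95%; they cover counting error only. Peak starts are printed 1 higher than in the files, whose lengths fit a count from 0. Members, gene lists and description classes were chosen with earlier results of these data known. The words defining the cytoskeleton, RNA processing and synapse classes were corrected after their first matches were seen, since one had matched inside other words.

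Genes named were the 12 with the strongest peaks, the 5 highest and 5 lowest input ratios with a mean of at least 50, the 5 with most peaks, the 3 longest and 3 shortest peaks, the 3 nearest either side of the FPKM minimum, and up to 4 of each list and class by score; identifiers without a proper symbol were named only among the 12 or the 2-fold genes. Genes named outside this rule, such as Tada2b and Marcksl1, were chosen after their values were seen. Some genes are not reported here. Python 3.11.15 with pandas 2.3.3, numpy 2.4.6, scipy 1.17.1 and matplotlib 3.10.9 was used, and scaling factors came from edgeR 4.0.16 and DESeq2 1.42.0 in R 4.3.3. The ratio step was tested on simulated counts. Alternatives covered the FPKM minimum, peak scores, position overlap, rows, pseudocount, scaling, count minimum, unit and width of the locus ends.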

Additional observations from a re-analysis of the deposited data

How the results depend on the processing

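Of 50 recomputed values, 36 stayed within the limits set for them and 14 moved. Most are counts, shares, lengths or levels, which cannot change sign. Only the median log2 ratio of the member genes can, and it was negative in every setting. The number of members depended on the score that counts as a peak: with BPA scores of at least 13 there were 304 peaks in 280 genes, with at least 100 there were 37 in 35 genes, and with a Ctrl peak counted only from a score of 13 there were 1484 peaks in 1213 genes. FPKM minimums of 0.1, of 5 and none gave 648 to 813 peaks. Edges of 20% put 34.4% of peaks at the start, 38.4% in the interior and 27.2% at the end, and edges of 5% put 60.9% in the interior and 12.5% at the end, by construction. With a minimum of 5 FPKM the median BPA input was 20.2 FPKM (16.4 in the main setting) and 486 counts (386). Without genes whose peak lies outside the locus of the row used, an alternative chosen after seeing the data, 4 member genes were 2-fold apart rather than 9. At a mean of at least 50 counts there were 8. There the members' share is above that of all genes rather than below it, as on the log2(FPKM + 1) scale. Rpl8, MGC109340, LOC100912059, Hmgb3 and Gstm5, with peaks outside the locus of the row used, are among these 8. The count minimum of 50 and the exclusion of such genes were not applied together. Scaling by totals, TMM or DESeq2 size factors left 9, and the median log2 ratio stayed between -0.03 and -0.02. These factors lay between 0.997 and 1.003, since the deposited counts appear to be scaled already, so this rescaling could change little. No paired analysis was possible because each group has 1 library, and for the same reason no library could be left out. Most peaks have low scores, a Ctrl peak under the list's own minimum cannot be told apart from none, and a gene name can join a peak to another locus.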

Other observations

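Genes with a BPA peak, no Ctrl peak and no input level that met the minimum held 77 peaks in 66 genes, with a median score of 9.89, and 32 of these peaks (41.6%) had a p-value of at most 0.05 by the authors' call. The strongest lay in LOC310926 (score 3100, fold enrichment 871), which has no row in the input tables, and in RGD1563705 (2134). Qk, also without a row, had a peak of 886 at chr1:52154363-52154479, on the same chromosome as the QK peak of 1401 and of the same length. Brms1, described as a suppressor of breast cancer metastasis, had peaks of 588 and 226. Both were 146 bp long, at chr1:227261278-227261423 and chr1:227354442-227354587. Its input counts were 145 in BPA_Input, against 3.03 in Ctrl_Input, where its FPKM of 0.282 was under the minimum. This difference rests on 1 library per condition and was not tested. Mfsd14a had peaks of 255 and 234.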
